A study of Mus musculus with 5 samples.

Results

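The cells described here are macrophages of the adult mouse heart that carried RNA of the chemokine receptor Ccr2 and none of the folate receptor Folr2. They were chosen cell by cell from the deposited values, which are the natural log of 1 plus the UMIs of a gene scaled to 10000 per cell (a UMI, or unique molecular identifier, stands for 1 captured transcript). A cell counted as a macrophage when the value of C1qa, a chain of complement C1q, was at least 3 and that of Csf1r, the receptor for the macrophage growth factor CSF1, was above 0. It was a Ccr2-positive Folr2-negative macrophage when Ccr2 was above 0 and Folr2, Cd209f and the endothelial cadherin Cdh5 were at 0. In all, 441 of 10961 cells met the rule, 4.02% of the cells and 11.4% of the 3857 macrophages. They are described against 1558 Folr2-positive macrophages, in which Folr2 was at least 1 and Ccr2 at 0, always within the same library.

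The study measured RNA in single cells of the cardiac interstitium of adult mice, freed with collagenase, cleared of cardiomyocytes and sorted on surface cKit, DDR2 and, for the cells that carried both, CD45. It holds 5 droplet libraries of 4 sorts, namely cKit-/DDR2+ with 2280 cells, cKit+/DDR2- with 436 cells in replicate 1 and 3020 in replicate 2, cKit+/DDR2+/CD45- with 1327, and cKit+/DDR2+/CD45+ with 3898. The labels give no strain, sex, age beyond adult, treatment or number of animals. Total depth ran from 4047326 UMIs in cKit+/DDR2- replicate 1 to 44847778 in cKit+/DDR2+/CD45+.

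Ccr2 binds CCL2 and related chemokines and draws monocytes out of the bone marrow and into tissue. In the mouse heart, macrophages with Ccr2 are known as cells renewed from blood monocytes, while many macrophages that carry Folr2, Lyve1 or Timd4 maintain themselves in the tissue with little input from blood. MHC class II molecules carry peptides to the cell surface for recognition by CD4+ T cells.

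Nearly all of these cells came from 2 libraries. There were 114 in cKit+/DDR2- replicate 2 and 316 in cKit+/DDR2+/CD45+, beside 3 in cKit-/DDR2+, 8 in cKit+/DDR2- replicate 1 and 0 in cKit+/DDR2+/CD45-, where Ccr2, Folr2 and Cd209f are not listed and could have UMIs in as many as 2 cells. Of the macrophages of a library they made up 22.1% in cKit+/DDR2- replicate 2 (114 of 515; 95% Clopper-Pearson interval 18.6 to 26.0%) and 9.55% in cKit+/DDR2+/CD45+ (316 of 3308; 8.57 to 10.6%). The share was higher in the first library, and the intervals, which cover the counting of cells only, did not overlap. In the small libraries the share was 34.8% of 23 macrophages (16.4 to 57.3%) in cKit+/DDR2- replicate 1 and 30.0% of 10 (6.67 to 65.2%) in cKit-/DDR2+. The interval of cKit+/DDR2- replicate 1 overlapped that of replicate 2 and lay above that of cKit+/DDR2+/CD45+, while that of cKit-/DDR2+ overlapped both. The sort, the animals and the library cannot be told apart in these comparisons, and the gates set which cells entered each library.

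**Figure D1:**
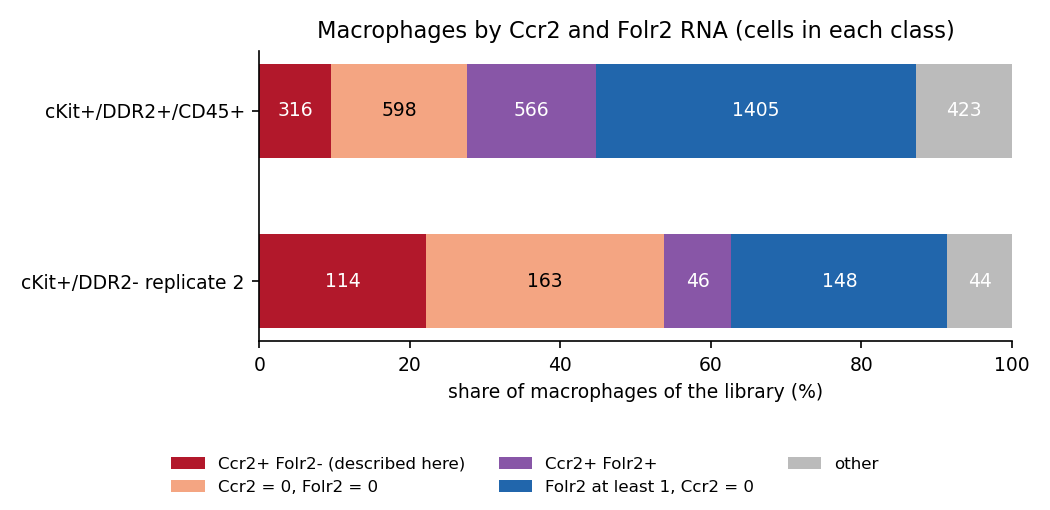
Horizontal bars give the macrophages of cKit+/DDR2- replicate 2 and of cKit+/DDR2+/CD45+ as shares in percent by their Ccr2 and Folr2 RNA, with the number of cells written in each segment. The Ccr2-positive Folr2-negative cells take 22.1% of the macrophages in the first library and 9.55% in the second, while the Folr2-positive class holds 148 and 1405 cells.

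Further values come from the 2 libraries with at least 50 of these cells unless another library is named. The UMIs of all cells of a class in a library were added up and expressed per 1000000 UMIs (CPM), and differences are log2 ratios of CPM after adding 1 CPM. Intervals are exact 95% Poisson intervals for CPM and exact conditional intervals for ratios, the latter without the added CPM, so that the ratio of a gene near 0 can lie outside its interval. They cover counting error only. The classes were chosen from these values and each sort has 1 usable library, so no test is given, and every difference is a description of these libraries. The cells had a median of 8822 UMIs in cKit+/DDR2- replicate 2, against 11127.5 in Folr2-positive macrophages, and 11511.5 against 11091 in cKit+/DDR2+/CD45+. Their median share of mitochondrial UMIs was 3.23% against 3.63% and 5.25% against 7.11%. Barcodes were shared by 190 cells of cKit+/DDR2- replicate 1 and cKit+/DDR2+/CD45+, where the second copy held 622.5 UMIs at the median against 12133.5. Such barcodes touched 1 of the 316 cells and 2 Folr2-positive macrophages in cKit+/DDR2+/CD45+, and the counts of genes given next were the same without them.

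Both classes were chosen as macrophages by C1qa and Csf1r, so their likeness in macrophage markers follows in part from the rule. Of 12 macrophage markers 12 were measured and 0 were at least 2-fold apart from Folr2-positive macrophages in both libraries. Adgre1, which encodes the F4/80 antigen, stood at 134 CPM (113 to 158) in cKit+/DDR2- replicate 2 and 222 CPM (208 to 238) in cKit+/DDR2+/CD45+, against 141 and 253 CPM in Folr2-positive macrophages. These levels lay close together in both libraries. Csf1r, used in the rule only as present, was at 886 against 924 CPM and 986 against 1173. Lysozyme Lyz2 had log2 ratios of -0.64 and -1.01, and was thus 2-fold lower in the second library alone.

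Markers of blood monocytes were nearly missing. Plac8, Chil3 and Hp were at 0 in the cells of both libraries, and Ly6c2, the surface antigen of classical monocytes, had 1 UMI in cKit+/DDR2- replicate 2 and 0 in cKit+/DDR2+/CD45+. The 10 monocyte markers summed to 60.6 CPM against 33.7 in Folr2-positive macrophages and to 82.1 against 28.4, and most of this was Napsa, the aspartic protease napsin A. Napsa was at 34.1 CPM (23.9 to 47.2) against 4.21 CPM in cKit+/DDR2- replicate 2 and 57.9 CPM (50.5 to 66.1) against 3.56 in cKit+/DDR2+/CD45+.

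Markers that define dendritic cells were low but not all absent. Flt3, the growth factor receptor of dendritic cells, was at 0.946 and 1.84 CPM, and the dendritic transcription factor gene Zbtb46 at 0 and 1.84 CPM. In the cells of the same libraries with both Xcr1 and Flt3 and C1qa under 3 (168 and 15 cells), Zbtb46 was at 62.7 and 59.7 CPM. Itgax, which encodes CD11c, was at 7.57 and 22.9 CPM against 0 and 0.701 in Folr2-positive macrophages, and at 85.5 and 85.7 CPM in the Xcr1 and Flt3 cells. Cd209a, a lectin of monocyte-derived dendritic cells, was at 11.4 and 24.5 CPM against 0 and 12.3. The 12 dendritic markers together came to 903 CPM against 488 in Folr2-positive macrophages of the first library and 757 against 454 in the second, most of it Mgl2, a lectin gene of macrophages and dendritic cells, at 794 against 432 and 620.1 against 386 CPM. Of the 20 genes of the wider dendritic list 6 were measured, with medians of 0.58 and 0.40. Of these, 0 were 2-fold higher or 2-fold lower in both libraries, beside 4.78% of all genes measured. Without the cells that held a UMI of Flt3, Zbtb46 or Xcr1, 112 and 305 cells remained and 43 of the 45 named genes that were 2-fold apart were still so. The Xcr1 and Flt3 cells had H2-Aa at 9654 and 10481 CPM and Cd52 at 2545 and 2786, above the cells described here. Ciita, Cd9 and Cadm1 were also higher there. Cd74 (20132 and 23092 CPM), H2-Eb1 (172 and 169) and Il1b (51.1 and 26.0) were lower there. High class II RNA was thus not particular to the cells described here.

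Markers of other cells were low. Summed markers of neutrophils came to 5.68 and 14.7 CPM, all of it Csf3r, those of T and NK cells to 11.4 and 2.89 CPM, all of it Il7r, and those of mast cells to 0 in both libraries. Endothelial markers summed to 34.1 and 16.6 CPM, pericyte markers to 4.73 and 12.1, and erythroid markers to 1.89 and 4.74. B cell markers summed to 234 and 349 CPM against 213 and 367 in Folr2-positive macrophages, most of it Ighm, with Ms4a1 at 0. Fibroblast markers summed to 218 and 220 CPM against 170.2 and 188 in Folr2-positive macrophages, most of it gelsolin (Gsn), which macrophages also express. Cardiomyocyte markers stood at 145 CPM against 50.5 in cKit+/DDR2- replicate 2 and at 32.1 against 23.9 in cKit+/DDR2+/CD45+, and their part in the results was not tested. The RNA of the sort's own targets was nearly missing, with Kit at 0 and 2.63 CPM and Ddr2 at 0 and 0.263 CPM in cells sorted as cKit+ and, in the second library, DDR2+. Ptprc, which encodes CD45, was at 395 and 367 CPM, against 221 and 287 in Folr2-positive macrophages.

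Few cells lay near the threshold on C1qa. Between 3 and 3.25 lay 5 of the cells in cKit+/DDR2- replicate 2 and 4 in cKit+/DDR2+/CD45+, with H2-Aa at 7794 and 8927 CPM and Adgre1 at 90.2 and 209. Just below, between 2.75 and 3, lay 2 and 3 cells that met the other conditions, with H2-Aa at 10282 and 12008 CPM and Adgre1 at 49.4 and 57.4. Another 64 and 49 Ccr2-positive Csf1r-positive cells had C1qa below 2.75, and those had Flt3 at 68.6 and 41.5 CPM. Of Ccr2 itself, 40 of the 114 cells held 1 UMI, 21 held 2 and 53 held 3 or more (at most 13), and of the 316 cells 117, 63 and 136 (at most 22).

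Of 2761 genes with at least 50 CPM in the higher class of each library, 37 were at least 2-fold higher in both libraries (1.34%) and 95 at least 2-fold lower (3.44%), 4.78% in all. The median log2 ratio over all genes was -0.08 in cKit+/DDR2- replicate 2 and -0.10 in cKit+/DDR2+/CD45+. In the first library 193 genes were 2-fold apart and in the second 179, and 0 genes were 2-fold apart on opposite sides. A gene is called higher or lower in the lists that follow when it met this rule in both libraries, and the genes used to choose the cells were left out of every count. Among the largest differences were MHC class II genes, Klrb1b, Mmp12, Il1b and Cd52 on the higher side and Lyve1, Fcna, Slc40a1, Ccl24 and F13a1 on the lower side.

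**Figure D2:**
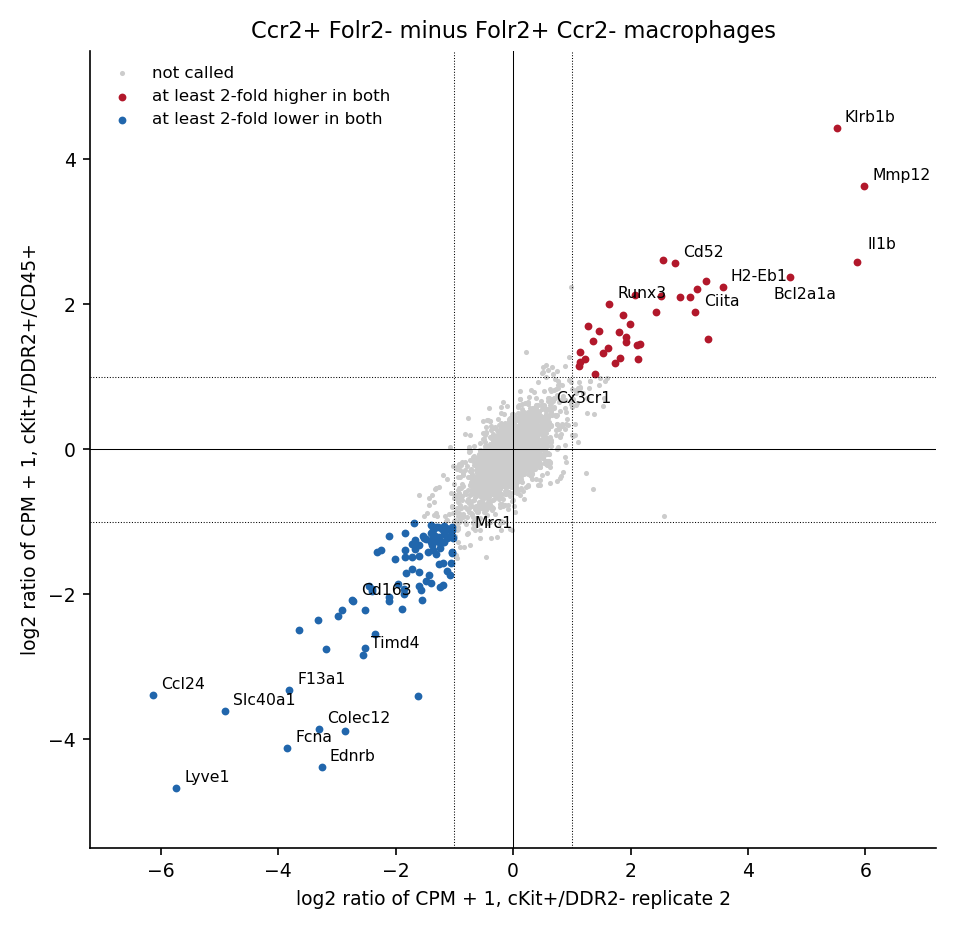
Each of 2761 points is a gene, placed by its log2 ratio of CPM + 1, Ccr2-positive Folr2-negative minus Folr2-positive macrophages, in cKit+/DDR2- replicate 2 (horizontal) and cKit+/DDR2+/CD45+ (vertical); dotted lines mark 2-fold. The 37 red genes are at least 2-fold higher in both libraries and the 95 blue genes at least 2-fold lower, and 0 genes are 2-fold apart on opposite sides.

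Genes of antigen presentation by MHC class II were higher. Of 9 genes measured, 8 were higher and 0 lower, beside 1.34% of all genes higher, and the list's median log2 ratio was 2.84 in cKit+/DDR2- replicate 2 and 2.10 in cKit+/DDR2+/CD45+. H2-Aa encodes the alpha chain of the I-A molecule and stood at 7850.4 CPM (7682 to 8021) in cKit+/DDR2- replicate 2, against 899 CPM (854 to 946) in Folr2-positive macrophages, a log2 ratio of 3.13 (3.05 to 3.21). In cKit+/DDR2+/CD45+ it stood at 9445 CPM (9348 to 9543) against 2039 CPM (2018 to 2060.5), a log2 ratio of 2.21 (2.19 to 2.23). The cells were high in both libraries, and the intervals of the classes were far apart. Its partner chain H2-Ab1 was at 7205 against 738 CPM and 7858 against 1570.0. H2-Eb1, the beta chain of I-E, was at 310.3 against 25.3 CPM and 334 against 69.8, with log2 ratios of 3.57 (3.15 to 4.12) and 2.24 (2.14 to 2.37).

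The promoters of H2-Aa and H2-Eb1 are shown because class II genes are known to share an upstream control region with a Y box, bound by the factor NF-Y and set beside the elements on which Ciita acts. Each is the 250 bases before the RefSeq transcription start, 5′ to 3′ on the gene's own strand in build GRCm38.p6, at chr17:34287824-34288073 (minus strand) for H2-Aa and chr17:34305617-34305866 (plus strand) for H2-Eb1. Capitals mark the letters CTGATTGG, which begin at position -51 from the start in H2-Aa and at -62 in H2-Eb1.
H2-Aa: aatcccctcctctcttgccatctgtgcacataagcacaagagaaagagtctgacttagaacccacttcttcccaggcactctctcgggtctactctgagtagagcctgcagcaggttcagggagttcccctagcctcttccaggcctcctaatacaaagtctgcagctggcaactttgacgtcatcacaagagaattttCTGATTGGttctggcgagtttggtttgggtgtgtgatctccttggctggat
H2-Eb1: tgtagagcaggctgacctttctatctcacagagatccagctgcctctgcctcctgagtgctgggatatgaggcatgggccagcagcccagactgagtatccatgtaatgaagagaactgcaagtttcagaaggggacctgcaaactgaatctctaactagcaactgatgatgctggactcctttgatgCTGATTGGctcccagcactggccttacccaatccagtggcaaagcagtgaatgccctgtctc
CTGATTGG or its reverse complement CCAATCAG was found in the 250 bases before the start in 3 of the 9 class II genes with a promoter in the table (H2-Aa, H2-Eb1 and H2-Oa) and in 1258 of 32851 promoters (3.83%). Of the 5 called class II genes with a promoter, 2 held it. A match describes these letters and says nothing of binding.

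Cd74, the invariant chain that guides class II molecules through the cell, was at 21789 CPM against 3048 in cKit+/DDR2- replicate 2 and 25729.6 against 6017 in cKit+/DDR2+/CD45+, log2 ratios of 2.84 and 2.10. Ciita, the transactivator that class II transcription depends on, was at 132 CPM (111 to 155) against 14.4 CPM and 122 CPM (111 to 133) against 32.0, log2 ratios of 3.10 and 1.89. The peptide exchange factor genes H2-DMa, H2-DMb1 and H2-DMb2 followed at 1.92, 2.44 and 2.51 on the log2 scale in the first library and 1.48, 1.89 and 2.12 in the second. H2-DMb1 and H2-DMb2 are close copies, and the counting could have split their reads. The chains, the chaperone, the exchange factor and the regulator were thus all higher. Ctss, cathepsin S, which trims the invariant chain, was higher by less than 2-fold (log2 ratios of 0.63 and 0.68). H2-Oa and H2-Ob, whose products hold back peptide exchange, stayed under 50 CPM. Per cell, H2-Aa lay above the Folr2-positive median in 99.1% of the cells in cKit+/DDR2- replicate 2 and 96.2% in cKit+/DDR2+/CD45+. In the libraries with few cells the direction was alike: 8 cells of cKit+/DDR2- replicate 1 had H2-Aa at 8322 CPM against 322 in 2 Folr2-positive cells, and 3 cells of cKit-/DDR2+ had 9641 against 2417 in 3.

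**Figure D3:**
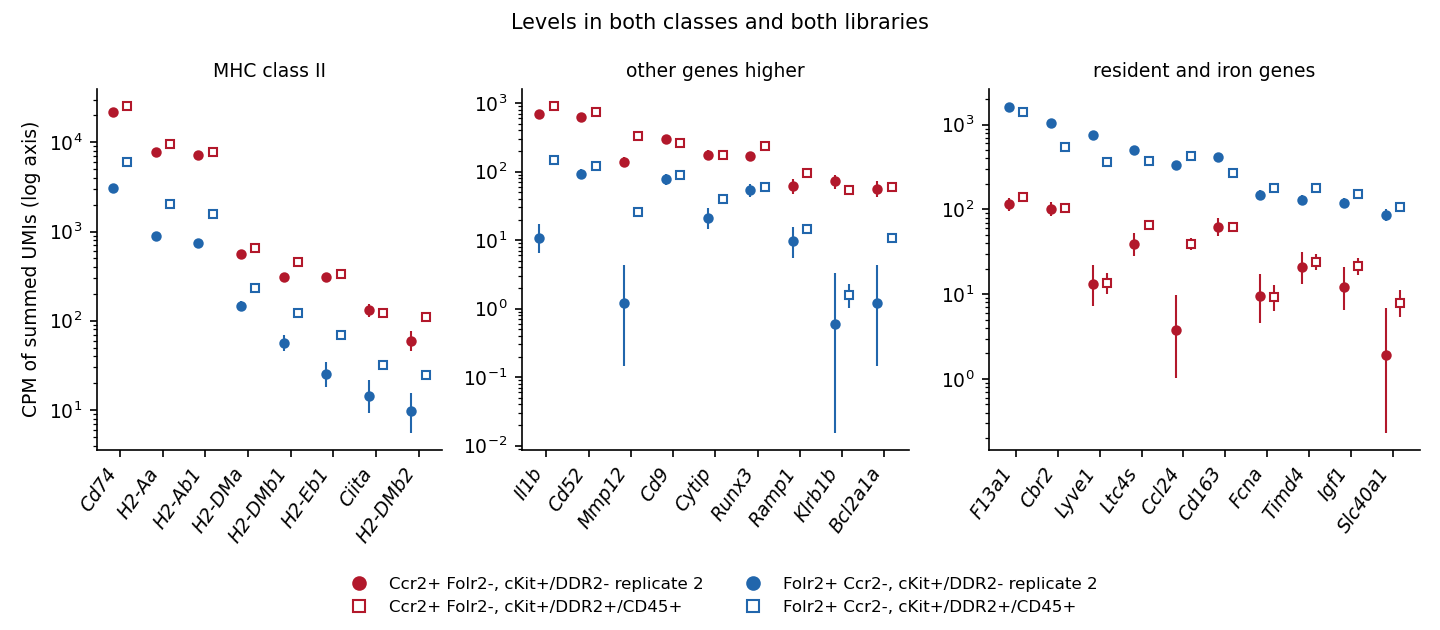
CPM of summed UMIs on a log axis for 8 MHC class II genes, 9 other genes higher and 10 genes lower in Ccr2-positive Folr2-negative macrophages (red) than in Folr2-positive macrophages (blue), with filled circles for cKit+/DDR2- replicate 2, open squares for cKit+/DDR2+/CD45+ and bars for exact 95% Poisson intervals. Red lies above blue for every gene of the first 2 panels and below it for every gene of the third.

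Genes of resident heart macrophages were lower. Of 18 measured, 14 were lower and 0 higher, beside 3.44% of all genes lower, with median log2 ratios of -2.21 and -2.01. Lyve1, a hyaluronan receptor, was at 13.2 CPM (7.24 to 22.2) against 762 CPM (721 to 806) in cKit+/DDR2- replicate 2 and at 13.4 CPM (9.99 to 17.6) against 367 CPM (358 to 376) in cKit+/DDR2+/CD45+. The log2 ratios were -5.74 (-6.72 to -5.09) and -4.67 (-5.20 to -4.38). It was at 0 in 98.2% and 87.0% of the cells, against 18.2% and 28.0% of Folr2-positive macrophages. Of its 14 UMIs in the cells of cKit+/DDR2- replicate 2, 13 came from 1 cell. Timd4, a receptor for phosphatidylserine on dying cells, was at 20.8 against 128 CPM and 24.2 against 179. F13a1, the A chain of coagulation factor XIII, was at 114 against 1626 CPM and 140.2 against 1415, log2 ratios of -3.82 and -3.33. The haemoglobin scavenger receptor gene Cd163 was at 62.4 CPM (48.3 to 79.4) against 418 CPM (387 to 450.1) and 61.8 CPM (54.2 to 70.3) against 267 CPM (259 to 274). In each of these genes the cells were low in both libraries and the intervals of the classes were apart.

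Further genes of the resident list lay on the same side. Cbr2, a carbonyl reductase, had log2 ratios of -3.33 and -2.36, and the leukotriene C4 synthase gene Ltc4s of -3.65 and -2.49. Fcna, which encodes the lectin ficolin A, was at 9.46 against 149.7 CPM and 9.21 against 177. Ccl24, the eosinophil chemoattractant eotaxin-2, was at 3.78 against 334 CPM (4 UMIs in all in the 114 cells) and 39.2 against 421. Gas6, a bridge between dying cells and their receptors, and the selenium carrier gene Selenop were lower by 1.85 and 1.93 and by 1.36 and 1.39 on the log2 scale. The mannose receptor gene Mrc1, often used as a resident marker, did not meet the rule, at 598 against 1037 CPM and 569 against 1281 (log2 ratios -0.79 and -1.17). Pf4, Maf and Txnip also did not meet it. Cd209f and Folr2 were in the rule for the cells, and nothing is drawn from them.

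Il1b was the 1 inflammatory cytokine gene on the higher side. It encodes interleukin 1 beta, the secreted product of inflammasome activation, and was at 686 CPM (637 to 738) against 10.8 CPM (6.41 to 17.1) in cKit+/DDR2- replicate 2, a log2 ratio of 5.86 (5.32 to 6.75). In cKit+/DDR2+/CD45+ it was at 898 CPM (868 to 929) against 149 CPM (143 to 155), a log2 ratio of 2.59 (2.52 to 2.67). The level in the cells differed by less than 2-fold between the libraries, and that in Folr2-positive macrophages by more. With every cell thinned to 3000 UMIs, which left out 4 and 1 of the cells and 1 and 16 Folr2-positive macrophages, Il1b was seen in 45.5% of 110 cells and 56.5% of 315, against 2.72% and 15.4% of Folr2-positive macrophages. Without thinning the shares were 63.2% and 80.4% against 8.11% and 33.0%. In endothelial cells of cKit+/DDR2- replicate 2 (Cdh5 without Csf1r and C1qa; 1521 cells with a median of 9199 UMIs), taken as a gauge of free RNA, it was seen in 0.474% after thinning and 1.12% before. The other library held 41 such cells with a median of 684 UMIs, of which 3 could be thinned, so free RNA was not gauged there. The 8 cells of cKit+/DDR2- replicate 1 had Il1b at 986 CPM against 0 in 2 Folr2-positive cells, and the 3 cells of cKit-/DDR2+ at 647 (400.4 to 989) against 565 (379 to 812) in 3.

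Other cytokines and chemokines did not follow Il1b. Of 13 measured, 1 was higher and 3 lower, beside 1.34% and 3.44% of all genes, with median log2 ratios of -0.17 and 0.34. The monocyte and T cell attractants Ccl6, Ccl7 and Ccl9 were lower: Ccl6 at 347 against 1404 CPM and 265 against 762, Ccl7 with log2 ratios of -1.53 and -1.19, and Ccl9 with -1.17 and -1.06. In thinned cells and in cells with at least 2 Ccr2 UMIs, Ccl7 and Ccl9 were under 2-fold in 1 or both libraries. That ends the call and is meant by under 2-fold from here on. Ccl9 was also under 2-fold with median of ratios scaling. For calls in thinned cells the rule was applied again to the thinned counts, so the classes held other cells than at full depth. Ccl2, the main ligand of Ccr2, was at 321 CPM (288 to 357) against 821 CPM (778 to 865) in cKit+/DDR2- replicate 2 and 648 CPM (623 to 674) against 1069 CPM (1053 to 1084) in cKit+/DDR2+/CD45+, and was 2-fold lower in the first library alone. Tnf had log2 ratios of 0.13 and 0.34, Ccl3 of 0.10 and 0.61, Ccl4 of 0.59 and 1.09, and the neutrophil attractant Cxcl2 of -0.17 and 0.65. Ccl4 was thus 2-fold higher in the second library alone, and the sign of Cxcl2 differed between the libraries. Of the innate sensing and NF-kB genes 11 were measured and 0 called, with medians of 0.00 and 0.11. Of the 4 interferon response genes measured (medians -0.84 and -0.99) 1 was lower, Ly6e, with log2 ratios of -1.49 and -1.24.

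Cd52, a small glycosylphosphatidylinositol-anchored glycoprotein of leukocytes, was at 631 CPM (584 to 681) against 92.6 CPM (78.5 to 108) in cKit+/DDR2- replicate 2 and 733 CPM (706 to 761) against 122 CPM (117 to 128) in cKit+/DDR2+/CD45+. After thinning it was seen in 69.1% and 79.7% of the cells, 17.7% and 24.3% of Folr2-positive macrophages and 2.17% of the endothelial cells (6.44% before thinning). Klrb1b, a C-type lectin-like receptor better known from natural killer cells, was at 71.9 CPM against 0.601 in the first library, where 1 UMI was counted in Folr2-positive macrophages, and 54.7 CPM (47.5 to 62.7) against 1.58 CPM (1.04 to 2.29) in the second. The log2 ratios were 5.51 (4.38 to 12.22) and 4.43 (4.54 to 5.75). The T and NK markers Cd3e, Cd3g, Nkg7, Gzma and Trbc2 were at 0 in the same cells. Bcl2a1a, an antiapoptotic relative of Bcl2, was at 56.8 against 1.20 CPM (2 UMIs) and 60.0 against 10.7, log2 ratios of 4.71 (3.65 to 8.64) and 2.38 (2.20 to 2.78). It has near-identical copies in the genome between which reads may have been split, so its level is uncertain. Cytip, which binds cytohesins and regulates leukocyte adhesion, had log2 ratios of 3.02 and 2.10, and Ramp1, a partner of the receptor for the neuropeptide CGRP, of 2.56 and 2.61.

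Among chemoattractant and growth factor receptors 14 were measured, 1 was higher and 0 lower, beside 1.34% and 3.44% of all genes, with medians of 0.07 and -0.33. The gene called was Tgfbr1, a receptor for TGF-beta, at 119 against 45.7 CPM and 157 against 55.1. In thinned cells its log2 ratio was 0.98 in the first library, which ends the call. Cx3cr1, the receptor for fractalkine, was at 467 CPM (427 to 511) against 309.6 CPM (283 to 338) in cKit+/DDR2- replicate 2 and 507 CPM (485 to 530.1) against 346 CPM (337 to 355) in cKit+/DDR2+/CD45+. It was higher by less than 2-fold, with log2 ratios of 0.59 and 0.55. On the lower side of all genes stood the endothelin receptor gene Ednrb, at 5.68 against 63.1 CPM and 3.95 against 102, and the fibroblast growth factor receptor gene Fgfr1, at 9.46 against 75.2 CPM and 5.0 against 87.6.

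Of 14 transcription factor genes measured, 1 was higher and 0 lower, beside 1.34% and 3.44% of all genes. This was Runx3, at 167 CPM (144 to 194) against 53.5 CPM (43.0 to 65.8) in cKit+/DDR2- replicate 2 and 238 CPM (223 to 254) against 58.8 CPM (55.2 to 62.5) in cKit+/DDR2+/CD45+, while the medians of the list were 0.09 and 0.14. Of 15 integrin and adhesion genes 2 were higher and 0 lower, against the same background, with medians of 0.37 and 0.31. They were Cadm1, an adhesion molecule of the immunoglobulin family, with log2 ratios of 1.46 and 1.63, and Emb, which encodes embigin, with 1.53 and 1.33. The integrin genes Itgam and Itga4 had log2 ratios of -0.29 and -0.58 and of 0.56 and 0.32. Of 7 genes measured of the monocyte-derived list 0 were called, with medians of -0.70 and -0.60, below those of all genes.

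The matrix and repair list held genes on both sides. Of 7 measured, 1 was higher and 4 lower, beside 1.34% and 3.44% of all genes, with medians of -1.02 and -1.23. Mmp12, macrophage metalloelastase, was at 138 CPM (117 to 162) against 1.20 CPM (0.146 to 4.34) in cKit+/DDR2- replicate 2, where Folr2-positive macrophages held 2 UMIs, and 327 CPM (309 to 346) against 25.5 CPM (23.1 to 28.0) in cKit+/DDR2+/CD45+. The log2 ratios were 5.98 (4.97 to 9.90) and 3.63 (3.52 to 3.84). On the lower side, the gelatinase gene Mmp9 was at 7.57 against 56.5 CPM and 12.4 against 55.5, and Igf1, insulin-like growth factor 1, at 12.3 against 120.2 and 21.3 against 150.1. The metalloproteinase inhibitor gene Timp2 had log2 ratios of -1.29 and -1.26, and Nrp1, a co-receptor for VEGF and semaphorins, of -1.02 and -1.23. Nrp1 was under 2-fold with 10 CPM added, in thinned cells, with totals without mitochondrial and ribosomal protein genes and without the cells with Flt3, Zbtb46 or Xcr1. The elastase and the gelatinase thus lay on opposite sides.

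Genes of lipid, iron and debris handling held few calls, and calls over all genes were also more often lower (3.44%) than higher (1.34%). Of 18 lipid and lysosome genes (medians -0.48 and -0.47) 1 was higher, the tetraspanin gene Cd9 with log2 ratios of 1.92 and 1.55, and 3 were lower. Those were Apoe, apolipoprotein E, at 7597 against 18329 CPM and 8241 against 19114, the cholesterol exporter gene Abca1, with -1.04 and -1.08, and the lysosomal protease gene Ctsd, with -1.13 and -1.68. Of 7 iron genes (medians -1.17 and -0.55) 2 were lower. Slc40a1, which encodes the iron exporter ferroportin, was at 1.89 CPM (0.229 to 6.84), from 2 UMIs, against 86.0 CPM (72.5 to 101) and 7.89 CPM (5.32 to 11.3) against 108 CPM (103 to 113), log2 ratios of -4.91 (-8.57 to -3.63) and -3.61 (-4.34 to -3.25). Blvrb, a biliverdin reductase, had log2 ratios of -1.39 and -1.05. Of 14 scavenging genes (medians -0.28 and -0.46) 1 was lower, the scavenger receptor gene Colec12, at 15.1 against 159 CPM and 10.8 against 171. Of 6 Fc receptor genes (medians -0.11 and 0.01) 1 was lower, Fcgrt, the neonatal Fc receptor, with -1.39 and -1.15, and of 6 complement genes (medians -0.54 and -0.64) 1 was lower, properdin (Cfp), with -1.14 and -1.11. In thinned cells Apoe, Abca1, Blvrb, Fcgrt and Cfp were under 2-fold, and Abca1, Blvrb and Cfp also under other alternatives, median of ratios scaling among them.

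Other lists showed few or no calls, beside 4.78% of all genes called in either direction. Of 18 immediate early and dissociation genes, which mark stress from tissue digestion, 0 were called in either direction, with medians of -0.11 and 0.00. Of 12 glycolysis genes 0 were called, with medians of -0.03 and 0.00. Of 5 proliferation genes (medians 0.12 and 0.47) 1 was higher, beside 1.34% of all genes, namely Stmn1, a microtubule regulator abundant in dividing cells, at 84.2 CPM (67.6 to 104) against 31.3 CPM (23.3 to 41.0) in cKit+/DDR2- replicate 2 and 172 CPM (159 to 186) against 83.1 CPM (78.9 to 87.6) in cKit+/DDR2+/CD45+. Stmn1 was under 2-fold with 10 CPM added, as the mean over cells, with at least 2 Ccr2 UMIs and in thinned cells, and its log2 ratios were 0.89 and 0.73 without the cells with Mki67 or Top2a. A UMI of the cycling genes Mki67 or Top2a was found in 7 of the 114 cells (6.14%, Clopper-Pearson interval 2.5 to 12.2%) and 41 of the 316 (13%, 9.47 to 17.2%). In Folr2-positive macrophages the shares were 4.05% (1.5 to 8.61%) and 7.69% (6.35 to 9.21%). The intervals, which cover the counting of cells only, overlapped in the first library and were apart in the second. After thinning the shares were 0.909% and 5.71% against 0 of 147 (up to 2.04% by 3 counts, 2.48% by Clopper-Pearson) and 2.59%, and in the second library the intervals then overlapped (3.42 to 8.88% against 1.82 to 3.57%).

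The Ccr2-positive Folr2-negative cells formed 1 corner of a field of 4 classes. Beside them and the 148 and 1405 Folr2-positive macrophages stood 46 and 566 macrophages with both RNAs and 163 and 598 with neither. The 4 classes leave out 40 and 386 macrophages without Ccr2 and with Folr2 between 0 and 1. Ccr2-positive Folr2-negative macrophages with Cd209f or Cdh5 are also left out. Cells with both RNAs could have any Folr2 value above 0, a looser cut than that of the Folr2-positive class. H2-Aa was at 5443 CPM in cells with neither and 2815 in cells with both in cKit+/DDR2- replicate 2, and at 7249 and 5584 in cKit+/DDR2+/CD45+, between the levels of the other classes given above. Lyve1 was at 26.5 CPM with neither and 289 with both in the first library and at 23.4 and 209 in the second. Il1b was at 791 CPM with neither and 64.3 with both, and at 1081 and 469. For Il1b the cells with neither RNA stood above the Ccr2-positive Folr2-negative cells in both libraries. For H2-Aa, Cd52 and Lyve1 the cells with neither RNA lay on the side of the Ccr2-positive Folr2-negative cells. Those with both lay between the Ccr2-positive Folr2-negative cells and the Folr2-positive class. Cadm1 was at 107 and 153 CPM with neither, against 119 and 155 in the Ccr2-positive Folr2-negative cells, and Cd9 at 319 and 246 against 296 and 265. F13a1 was at 175 and 155 CPM with neither, against 114 and 140. These levels were thus not particular to the Ccr2-positive Folr2-negative cells. Mmp12 was at 170.3 CPM with neither in the first library, above the 138 CPM of the Ccr2-positive Folr2-negative cells, and at 184 in the second, below their 327. A Ccr2 count of 0 can be a missed transcript: after thinning to 3000 UMIs, 60.0% and 49.8% of the cells chosen for Ccr2 still showed it. The cells with neither RNA had medians of 8412 and 10077 UMIs, so thinning does not give the share missed at their depth. That share was not tested.

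**Figure D4:**
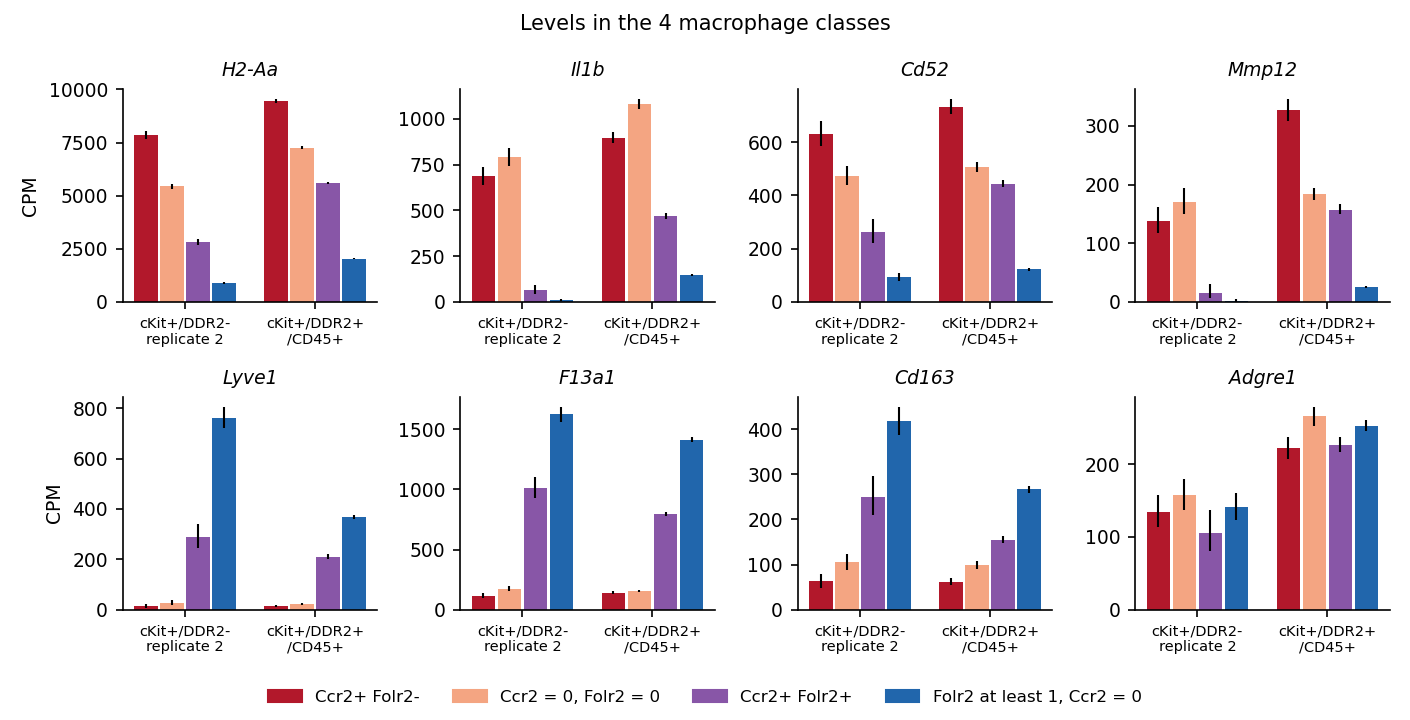
Bars give CPM of summed UMIs of 8 genes in the 4 macrophage classes by Ccr2 and Folr2 RNA, for cKit+/DDR2- replicate 2 (left group of each panel) and cKit+/DDR2+/CD45+ (right group), with exact 95% Poisson intervals. H2-Aa and Cd52 are highest in Ccr2-positive Folr2-negative cells and Lyve1, F13a1 and Cd163 in Folr2-positive ones, while Adgre1 stays within 106 to 157 CPM in the first library and 222 to 266 in the second.

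The cells were also set apart by how many Ccr2 UMIs they held, and H2-Aa was lowest in cells with 1 Ccr2 UMI in both libraries. In cKit+/DDR2+/CD45+, H2-Aa was at 8556 CPM in cells with 1 Ccr2 UMI, 9668 with 2 and 10029 with 3 or more, and in cKit+/DDR2- replicate 2 at 7185, 8179 and 8143. Lyve1 was at 3.03, 0 and 24.1 CPM in cKit+/DDR2- replicate 2 and 18.2, 14.2 and 9.37 CPM in cKit+/DDR2+/CD45+. In cKit+/DDR2- replicate 2 its 14 UMIs came from 2 cells, 13 of them from 1 cell. Plac8 was at 0 in every bin. Cd209a was at 9.87, 11.6 and 41.6 CPM over the same bins in cKit+/DDR2+/CD45+. In cKit+/DDR2- replicate 2 it was seen at 3 or more alone (22.2 CPM, from 2 cells). Cells with more UMIs in all can hold more Ccr2 UMIs, and the bins were not matched on depth.

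Single genes were spread unevenly over the cells. H2-Aa was found in 113 of 114 cells and 315 of 316, and the top 11 and 31 cells held 23.9% and 18.4% of its UMIs. Il1b was found in 72 and 254 cells, and the top cells held 45.7% and 46.9%. Mmp12 was found in 24 cells (21.1%) and 110 cells (34.8%), and the top cells held 80.8% and 73.9% of its UMIs. Class II was thus common to nearly all cells, Il1b to most, and Mmp12 to a minority. Klrb1b was found in 48 and 118 cells, Napsa in 28 and 107, Spp1 (osteopontin) in 13 and 53, Itgax in 5 and 52 and Cd209a in 2 and 30. In the endothelial cells of cKit+/DDR2- replicate 2 taken as a gauge of free RNA, Mmp12 was found in 0.394%, Klrb1b in 0.657% and H2-Aa, which endothelial cells can express themselves, in 34.3%. Of the 69 UMIs of the interferon-induced chemokine gene Cxcl9 in cKit+/DDR2- replicate 2, 66 came from 1 cell.

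**Figure D5:**
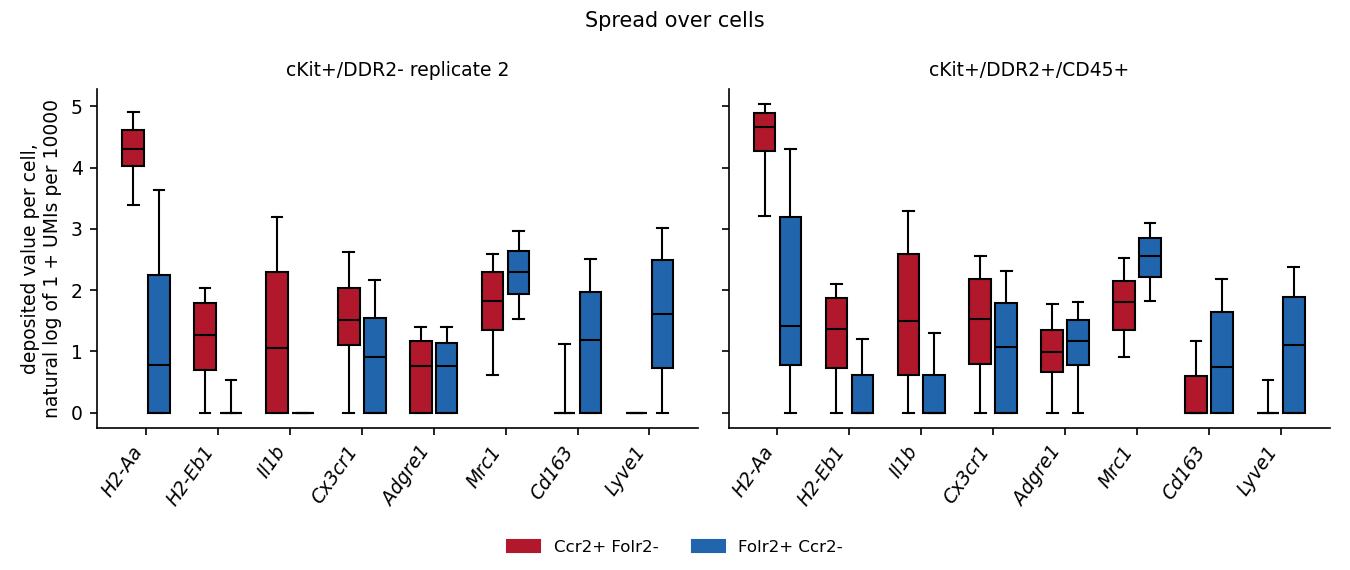
Boxes give the deposited value per cell (natural log of 1 plus UMIs per 10000) of 8 genes in Ccr2-positive Folr2-negative (red) and Folr2-positive (blue) macrophages, with the median, the quartiles and whiskers at the 10th and 90th percentiles, for cKit+/DDR2- replicate 2 and cKit+/DDR2+/CD45+. For H2-Aa the red box lies above the blue one in both libraries, for Lyve1 the red median is at 0, and for Adgre1 the boxes overlap.

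Cells with a UMI of Mmp12 were set against those without. In cKit+/DDR2+/CD45+, Itgax was at 49.8 CPM in the 110 cells with Mmp12 and 7.45 in the 206 without, Mrc1 at 370.4 against 683 and H2-Aa at 10224 against 8999. In cKit+/DDR2- replicate 2, Itgax was at 4.28 CPM in the 24 cells with Mmp12 (1 UMI) and 8.50 in the 90 without, Mrc1 at 595 against 599 and H2-Aa at 7577 against 7928. In cKit+/DDR2- replicate 2 the intervals of Itgax and of H2-Aa overlapped between cells with and without Mmp12. A difference in direction between the libraries was thus not resolved. For Mrc1 the levels of cKit+/DDR2- replicate 2 lay close together. Other genes lay on the same side in both. Cd52 was at 707 CPM with Mmp12 against 610 without in the first library and 923 against 625 in the second. Cd9 was at 364 against 277 and 305 against 243, and Spp1 at 38.6 against 13.4 and 41.2 against 28.1. Cd209a was at 45.5 against 12.4 CPM in the second library and at 25.7 against 7.29 in the first. In the first library it had 6 UMIs with Mmp12 and 6 without, from 2 cells in all, so no side is read there. In the first library the intervals of all 4 of these genes overlapped between the cells with and without Mmp12. In the second those of Spp1 overlapped as well. Cells with a UMI of Il1b had more Mmp12 in both, at 211 CPM (177 to 249) against 17.6 (7.09 to 36.3) in cKit+/DDR2- replicate 2 and 340.4 against 272 in cKit+/DDR2+/CD45+.

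Few genes of the cells differed 2-fold between the libraries. Of 2651 genes measured in both, 47 (1.77%) were at least 2-fold apart, 21 higher and 26 lower in cKit+/DDR2+/CD45+, and in Folr2-positive macrophages 49 (1.85%), 23 higher and 26 lower. Of these, 24 were apart on the same side in both classes. Il1b was at 686 CPM in cKit+/DDR2- replicate 2 and 898 in cKit+/DDR2+/CD45+ in the Ccr2-positive Folr2-negative cells, and at 10.8 and 149 in Folr2-positive macrophages. H2-Aa went from 7850.4 to 9445 CPM in the cells and from 899 to 2039 in the comparison class, so the smaller log2 ratio of the second library came with a higher level in Folr2-positive macrophages. Cd207, which encodes the lectin langerin, was at 54.9 and 31.0 CPM in the cells and at 8.42 and 59.5 in Folr2-positive macrophages, with the order of the classes exchanged. The heat shock gene Hspa1a was at 2949 and 810.3 CPM in the cells and 2493 and 598 in Folr2-positive macrophages, a gap between the libraries that both classes shared. Xist, the RNA of the inactive X chromosome of female cells, was at 738 CPM in the cells and 238 in Folr2-positive macrophages of cKit+/DDR2- replicate 2 and at 0 and 0.0584 in cKit+/DDR2+/CD45+. The Y-linked gene Ddx3y was at 0 in both classes of cKit+/DDR2- replicate 2. In cKit+/DDR2+/CD45+ it was at 57.4 CPM in the cells and 59.0 in Folr2-positive macrophages. The part of the animals' sex in any difference was not tested, and between these libraries it cannot be told apart from the sort.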

How the data were processed

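The 5 deposited tables give gene symbols and a natural log value for each cell and gene, made by the authors from 1 plus the UMIs per 10000 of the cell. Per the submitters' processing notes, reads were handled with Cell Ranger (version not given in the sources used here) on build mm10 and cells with Seurat 4.0.4. UMIs per cell were recovered from the values and came out whole, within a tolerance of 0.01, in 100% of values. A gene not listed in a table counted as 0 there and could have UMIs in as many as 2 cells. Between 1 and 190 barcodes were shared by pairs of libraries.

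The cells, the comparison class, the gene lists and the rules were chosen with earlier results of these data known. UMIs were summed per class and library, scaled to counts per 1000000 (CPM), and compared as log2 ratios with 1 CPM added. A gene was measured at 50 CPM or more in the higher class of each library, and was counted when 2-fold higher, or 2-fold lower, in both. Named were the 12 largest such differences each way with at least 20 UMIs (leaving out Xist, Y-linked, mitochondrial, haemoglobin, ribosomal protein and predicted genes), up to 6 called genes of each list, the sort targets, and 16 markers whatever their values. Further members of the lists, and Xist, Ddx3y, Cd207 and Hspa1a, were named after their values were seen. The values of a few single genes are not reported here. No significance test was run. The 5 libraries come from cells whose separate origin the labels do not state, and cells are not replicates. Shares of cells with a UMI of a gene were also taken after thinning each cell to 3000 UMIs (seed 1). These shares kept the classes as chosen at full depth. No doublet caller was run; cells above the 95th percentile of UMIs were left out as an alternative. In simulated counts for 2578 genes, 189 of 200 genes changed 4-fold were recovered with 0 false calls. The rule calls genes at 2-fold, and the real classes were chosen from the same values. The simulation thus gives no error rate for the genes called here. Promoters are from RefSeq, build GRCm38.p6. Python 3.11.15, numpy 2.4.6, scipy 1.17.1, pandas 2.3.3 and matplotlib 3.10.9 were used.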

Additional observations from a re-analysis of the deposited data

How the results depend on the processing

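Each result was recomputed with another added count, other minimum levels and folds, other totals and scalings, other thresholds on C1qa, Ccr2 and Folr2, thinned cells, and without dendritic, cycling, UMI-rich or barcode-sharing cells, the last chosen after seeing the data, as was a comparison class without Cdh5 and Cd209f. None of the 45 named genes that were 2-fold apart changed side under these alternatives. Median of ratios scaling moved the median log2 ratio of all genes in cKit+/DDR2+/CD45+ from -0.10 to 0.02, with 45 genes higher and 84 lower. The 37 genes higher became 88 with a minimum of 10 CPM, 181 with none and 96 at 1.5-fold, and the 95 genes lower became 183, 266 and 199. With 1 library in place of both, 49 to 69 genes were higher (69 without cKit+/DDR2+/CD45+) and 124 to 130 lower. With at least 2 Ccr2 UMIs, the cells made up 14.4% of macrophages in cKit+/DDR2- replicate 2 and 6.02% in cKit+/DDR2+/CD45+, and in thinned cells 15.1% in the first. The median of the resident genes over both libraries, -2.11, was -1.94 with 10 CPM added, -2.29 with Folr2 at least 2 and -1.71 in thinned cells, while that of MHC class II genes, 2.47, ranged from 2.10 to 2.91. Of 45 named genes 2-fold apart, at least 41 remained so under each alternative except thinning, which left 35; Abca1, Apoe, Blvrb, Ccl7, Ccl9, Cfp, Fcgrt, Nrp1, Stmn1 and Tgfbr1 then fell under 2-fold in 1 or both libraries. Under thinning the rule was applied again to the thinned counts, so the classes were other sets of cells. They held 68 and 277 Ccr2-positive Folr2-negative cells and 136 and 1409 Folr2-positive macrophages. The cause of the drop was not tested. Values of named genes moved outside their counting intervals in 238 recomputations and not in 1330, and list medians by more than the SD between the libraries in 43 and not in 261. No test, paired or not, was run, because the classes were chosen from the same values. Differences between the classes were taken within a library, and differences between the libraries are named as such. Depth limits genes with few UMIs in a class, such as Slc40a1, Klrb1b and Bcl2a1a, whose intervals are wide.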
